A study of Caenorhabditis elegans with 6 samples.

Results

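The 8 core cyclins, cyclin-dependent kinases (CDKs) and CDK inhibitor examined here are *cki-1*, *cyd-1*, *cdk-4*, *cye-1*, *cdk-2*, *cdk-1*, *cyb-1* and *cyb-3*. They were chosen by symbol, and all 8 were matched to 1 gene identifier each among the 46904 genes counted. RNA-seq was performed on whole L1 larvae, untreated, of strains cultured on *E. coli*. The RNA-seq method of the paper does not state whether these larvae were fed before collection. There were 2 libraries for each of 3 strains: wild-type (N2), *csb-1* (line RB1801, genotype csb-1(ok2335)) and *xpc-1* (line TG2226, genotype xpc-1(tm3886)). CSB-1 is required for transcription-coupled repair and XPC-1 for global repair of ultraviolet damage. The study mapped where and when ultraviolet damage is removed, and the animals of these RNA libraries were untreated. Poly(A) RNA was sequenced, and nothing in the labels gives the hour of collection of a library or says that the 2 libraries of a strain came from separate cultures. The p-values below therefore measure the spread between these libraries, which may be technical.

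Cyclins bind and activate CDKs, and the cyclin sets the phase of the cell cycle at which the kinase acts. In *C. elegans*, cyclin D (CYD-1) with CDK-4 inactivates the retinoblastoma protein LIN-35 in G1, cyclin E (CYE-1) with CDK-2 starts S phase, and CDK-1 with the B-type cyclins CYB-1 and CYB-3 drives mitosis. CKI-1, of the p27 family of CDK inhibitors, holds cells in G1. Larvae that hatch without food stop development with their blast cells in G1 and need *cki-1* for this arrest, and in fed L1 larvae the blast cells resume division.

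The genes lie on 6 chromosomes of WBcel235, in the coordinates of the deposited tables, and all 8 are protein-coding. *cki-1* (WBGene00000516) spans bases 7811240 to 7812105 of chromosome II on the plus strand. *cyd-1* (WBGene00000870) lies on the plus strand of chromosome II at 12980591 to 12993118, and *cdk-4* (WBGene00000406) on the minus strand of chromosome X at 13515871 to 13518911. *cye-1* (WBGene00000871) and *cdk-2* (WBGene00019362) are both on the plus strand of chromosome I, at 6780806 to 6784396 and at 3410012 to 3415238. *cdk-1* (WBGene00000405) lies on the plus strand of chromosome III at 9747432 to 9748852. *cyb-1* (WBGene00000865) is on the plus strand of chromosome IV at 10735259 to 10737177, and *cyb-3* (WBGene00000868) on that of chromosome V at 15395696 to 15397348. Reads were counted without regard to strand. Only *cdk-2* shared exon sequence with another gene, 76 bases with the antisense RNA *anr-45*, to which at most 18 reads were assigned in any library. Summed exon length ran from 809 bases for *cki-1* to 2106 bases for *cye-1*.

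Each library held between 41643033 and 48371365 reads on genes. The *xpc-1* gene had 43.5 and 40.1 CPM in wild-type (read counts divided by the TMM-scaled library size, per 1000000) and 18.03 and 17.92 CPM in the *xpc-1* strain. The *csb-1* gene had 20.5 and 22.9 CPM in wild-type, and 17.5 and 8.04 CPM in *csb-1* replicates 1 and 2. The 2 *csb-1* libraries stood far apart. Across 18421 genes, the log2 ratio between the libraries of a strain had an SD of 1.68 in *csb-1*, against 0.26 in wild-type and 0.26 in *xpc-1*. The share of ribosomal protein genes was 4.53% of counts for *csb-1* replicate 1, 22.9% for replicate 2, and between 7.50% and 10.8% for the other libraries. Results for *csb-1* are therefore given for each library as well as for the strain. Markers of adult intestine (6 vitellogenin genes) summed to 1.43 CPM in *csb-1* replicate 2 and to between 7.03 and 8.43 CPM elsewhere, and markers of sperm to at most 1.97 CPM, with *msp-142* at 0 in every library. Of the 4 markers of seam cells, 1 could not be matched by symbol, and *nhr-73* and *nhr-74* were under 1 CPM in every library.

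Between genes, levels were compared in TPM, which divides the reads by exon length. In wild-type, the mitotic cyclin *cyb-3* was the most abundant of the 8, with 146 and 176 TPM, and the inhibitor *cki-1* followed with 102 and 125 TPM. *cyb-1* had 61.2 and 68.1 TPM, and *cdk-1* had 54.2 and 58.7 TPM. The G1 cyclin *cyd-1* had 34.9 and 42.0 TPM. *cdk-4* (11.4 and 12.3 TPM), *cye-1* (10.9 and 11.099 TPM) and *cdk-2* (10.2 and 8.60 TPM) were lowest. No neighbours in this order overlapped in wild-type, although *cdk-4*, *cye-1* and *cdk-2* lay close together. Ranked against 18762 expressed protein-coding genes (mean TPM over 0), *cyb-3* stood at percentile 95.6, *cki-1* at 93.4 and *cdk-2* at 48.9. In *xpc-1* the order changed at 1 place beyond the spread of the libraries: *cyb-1*, with 213 and 227 TPM, lay above *cki-1*, with 166 and 183 TPM. There *cdk-4* and *cye-1* overlapped. In *csb-1*, every pair of neighbours overlapped, because its 2 libraries were so far apart.

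**Figure D1:**
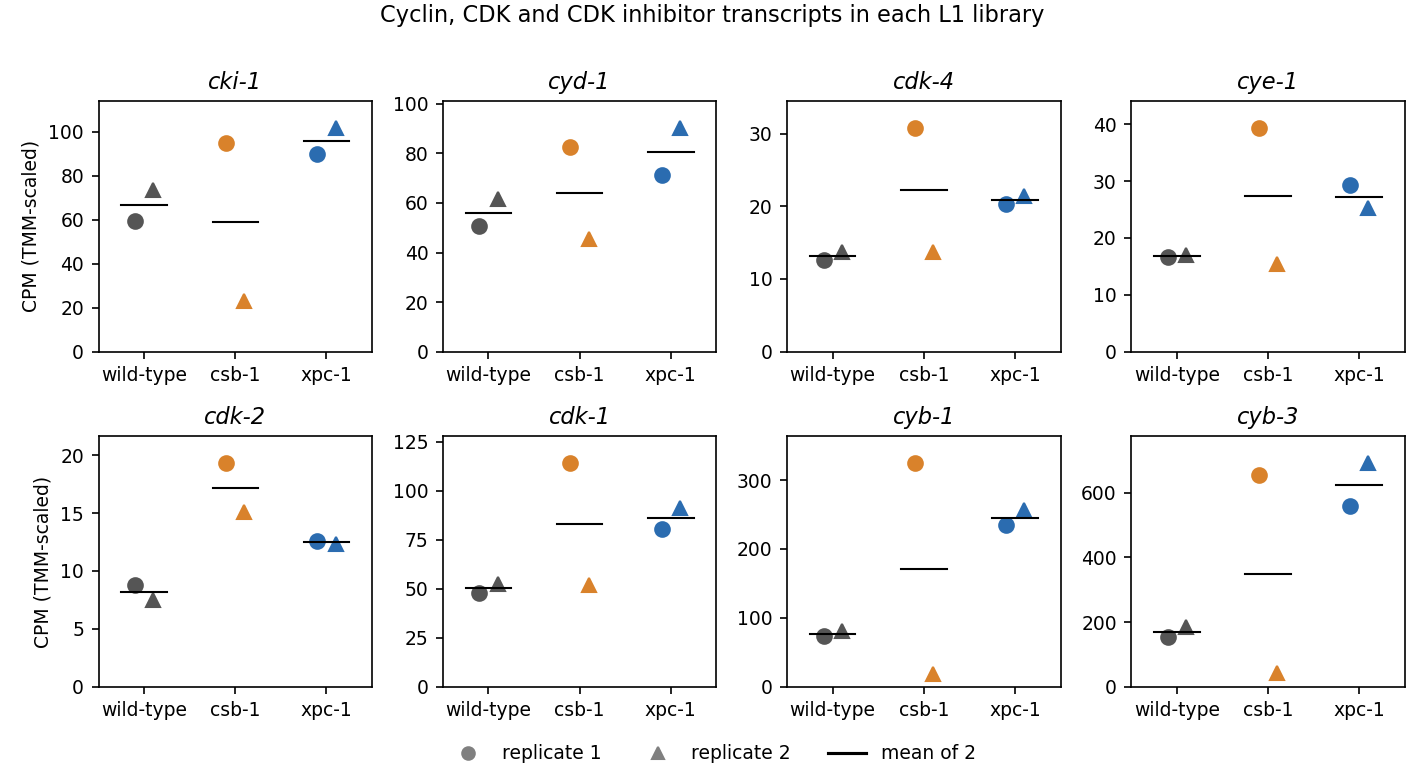
Level of each gene in CPM (TMM-scaled, linear axis from 0) in the 6 L1 libraries, 1 point per library, with circles for replicate 1, triangles for replicate 2 and a line at the mean of 2 libraries. Both *xpc-1* libraries lay above both wild-type libraries for all 8 genes, while for *cyb-1*, *cyb-3*, *cki-1*, *cyd-1* and *cye-1* the *csb-1* libraries fell on opposite sides of wild-type.

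To ask whether the loss of XPC-1 goes with a different expression of the cell cycle genes, the *xpc-1* libraries were compared with wild-type. All 8 genes were higher in *xpc-1*, and they fell into a strongly raised pair, the mitotic cyclins *cyb-1* and *cyb-3*, and 6 genes raised by smaller amounts. All 8 passed the quasi-likelihood F-test of edgeR at an adjusted p under 0.05 (method of Benjamini and Hochberg, over 17924 genes). In this comparison 37.1% of all genes passed, and 20.0% of all genes passed upward, and the median log2 fold change over all genes was -0.017. The median over the 8 genes was 0.70. The CPM of both *xpc-1* libraries lay above both wild-type libraries for 8 of 8 genes, and for 33.3% of all genes. All of these calls rest on fitting the 4 libraries of the 2 strains alone: in a fit of all 6 libraries, where the spread between the *csb-1* libraries enters the error of every comparison, 0 of 18421 genes passed (0%, with 267 at an unadjusted p under 0.05), and every one of the 8 had an adjusted p of 0.948. The fold changes moved little, with 1.88 for *cyb-3* and 0.52 for *cyd-1* on the log2 scale. DESeq2 on the 4 libraries called 8 of the 8, among 36.4% of all genes.

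Among the mitotic genes, *cyb-3* went from 154 and 186 CPM (wild-type) to 559 and 692 CPM (*xpc-1*). It rose 3.73-fold, or by 1.90 ± 0.13 on the log2 scale (± SE, edgeR adjusted p = 4.17e-05). *cyb-1* went from 72.9 and 81.5 CPM to 235.09 and 256 CPM, a rise of 1.69 ± 0.098 (log2 ± SE, edgeR adjusted p = 2.56e-05). For both cyclins the gap between the strains was far wider than that between the libraries of either strain. Their partner kinase *cdk-1* rose less, from 48.0 and 52.2 CPM to 80.6 and 91.2 CPM, by 0.80 ± 0.10 (log2 ± SE, edgeR adjusted p = 0.000461). Within a library, the ratio of *cyb-1* to *cdk-1* in TPM, which no scaling of depth can change, was 1.13 and 1.16 for wild-type, against 2.17 and 2.09 for *xpc-1*. The ratio of *cyb-3* to *cdk-1* was 2.70 and 2.999 for wild-type and 5.84 and 6.38 for *xpc-1*. Both ratios were higher in each *xpc-1* library than in each wild-type library. No test was run on such ratios, since an exact permutation test of 2 libraries against 2 cannot give a p below 0.333.

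Of the G1 genes, the inhibitor *cki-1* went from 59.5 and 73.4 CPM to 90.1 and 102 CPM. It rose by 0.55 ± 0.12 (log2 ± SE, edgeR adjusted p = 0.00639). Cyclin D, *cyd-1*, went from 50.7 and 61.4 CPM to 71.1 and 90.2 CPM, a rise of 0.54 ± 0.13 (log2 ± SE, edgeR adjusted p = 0.0121). These 2 genes, with opposite roles in G1, rose by nearly equal amounts. The *cki-1* to *cyd-1* ratio in TPM overlapped between the strains, at 2.92 and 2.98 for wild-type against 3.15 and 2.80 for *xpc-1*. The kinase *cdk-4* rose from 12.7 and 13.7 CPM to 20.4 and 21.5 CPM (0.68 ± 0.13, log2 ± SE, edgeR adjusted p = 0.00299). The calls for *cki-1* and *cyd-1* depended on single libraries. Without wild-type replicate 1, where 26.6% of all genes passed, the edgeR adjusted p was 0.0568 for *cki-1* and 0.113 for *cyd-1*. Without *xpc-1* replicate 2 (28.0% of all genes) it was 0.0846 for *cyd-1*.

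The pair that starts S phase rose by similar amounts. Cyclin E, *cye-1*, went from 16.6 and 17.0 CPM to 29.3 and 25.27 CPM, a rise of 0.72 ± 0.12 (log2 ± SE, edgeR adjusted p = 0.00226). Its kinase *cdk-2* went from 8.81 and 7.48 CPM to 12.6 and 12.4 CPM, a rise of 0.63 ± 0.16 (log2 ± SE, edgeR adjusted p = 0.0121). Its adjusted p was 0.0861 without wild-type replicate 2, where 25.8% of all genes passed. The mitotic group (*cdk-1*, *cyb-1* and *cyb-3*) summed to 262 and 303 TPM for wild-type, against 885 and 1029 TPM for *xpc-1*, and the G1 entry group (*cyd-1*, *cdk-4* and *cye-1*) to 57.2 and 65.4 TPM, against 93.4 and 103 TPM. The mitotic to G1 entry ratio was 4.57 and 4.63 for wild-type, against 9.48 and 9.95 for *xpc-1*. Both sums were higher in *xpc-1*, and the mitotic sum by the larger factor.

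**Figure D2:**
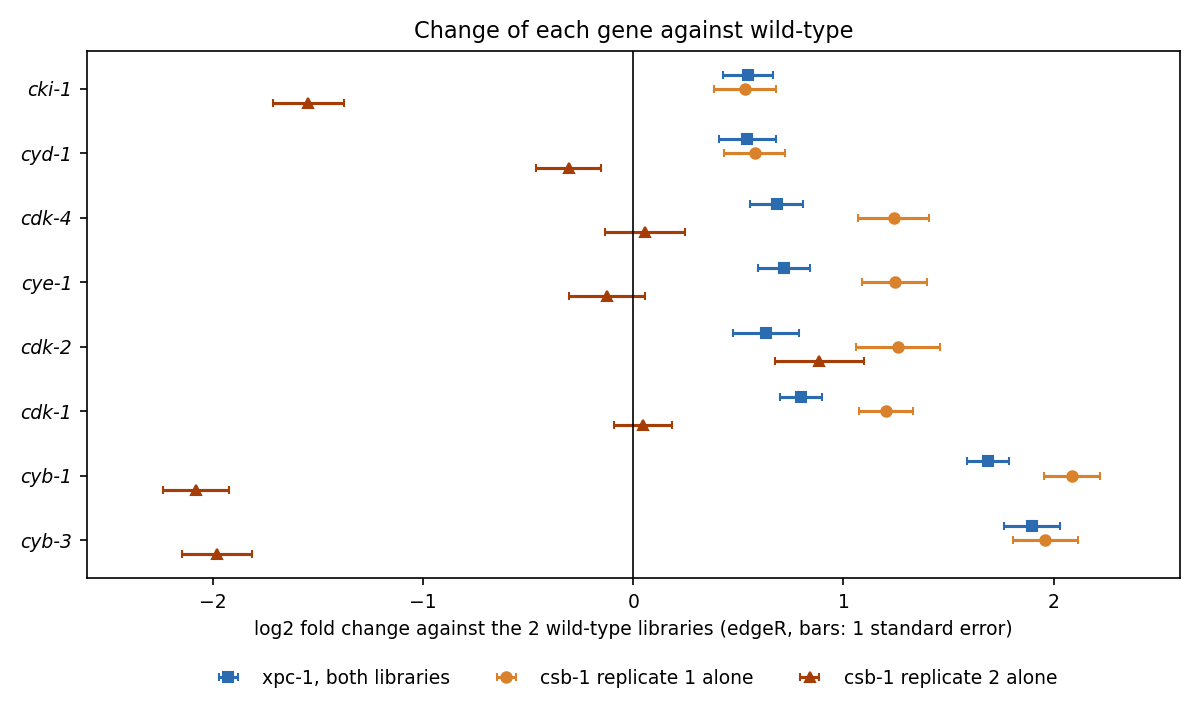
Log2 fold change of each gene against the 2 wild-type libraries from edgeR, with bars of 1 standard error, for *xpc-1* (squares, both libraries) and for each *csb-1* library on its own (circles, replicate 1; triangles, replicate 2). In *xpc-1* the values ran from 0.54 for *cyd-1* to 1.90 for *cyb-3*, and in the *csb-1* libraries *cyb-1* was at 2.09 in replicate 1 and at -2.08 in replicate 2.

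Genes used as markers of oocytes moved with the mitotic cyclins, and markers of the germ line did so in part. Such transcripts in whole larvae do not show that oocytes were present. The summed level of the 4 oocyte markers *rme-2*, *puf-5*, *oma-1* and *oma-2* was 32.2 and 40.2 CPM in wild-type, 126 and 137 CPM in *xpc-1*, 173 CPM in *csb-1* replicate 1 and 8.495 CPM in *csb-1* replicate 2, and all 4 were higher in both *xpc-1* libraries than in both wild-type libraries. Of all genes tested, 33.3% had both *xpc-1* libraries above both wild-type libraries, and the marker counts here stand against that share. The 7 germ line markers (*pgl-1*, *pgl-3*, *glh-1*, *glh-2*, *glh-4*, *nos-2* and *mex-3*) summed to 129 and 131 CPM for wild-type, against 224 and 236 CPM for *xpc-1*, with 7 of 7 higher. In *csb-1* replicate 1 they summed to 305 CPM, and in replicate 2 to 122 CPM, close to wild-type. Within that second library the markers went different ways: *nos-2* was at 0 CPM and *mex-3* at 41.1 CPM, below both wild-type libraries, while *pgl-1* (23.4 CPM), *pgl-3* (5.80 CPM) and *glh-1* (35.1 CPM) lay above both. Among the markers of larval tissues, hypodermis summed to 206 and 205 CPM (wild-type) against 299 and 326 CPM (*xpc-1*), muscle to 6923 and 7833 CPM against 5052 and 5359 CPM, neurons to 529 and 539 CPM against 443 and 478 CPM, and intestine to 516 and 530 CPM against 375 and 394 CPM. Both *xpc-1* libraries were above both wild-type libraries for 2 of 3 hypodermis markers, with most of the difference in the sum from *dpy-7* and with *elt-3* lower, for 0 of 3 muscle and 0 of 3 neuron markers, and for 1 of 3 intestine markers, *elt-2*, while most of that sum was *ifb-2*. The seam cell markers, nearly all of it *elt-6*, summed to 32.8 and 39.8 CPM against 46.2 and 48.0 CPM. In RNA from whole larvae, more cells of a type and more RNA per cell cannot be told apart, and the part of these shifts in the cyclin result was not tested.

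Other genes of the cell cycle were read from lists that hold none of the 8, and each count of genes higher in *xpc-1* stands against the 20.0% of all genes called higher. In the fit of all 6 libraries, 0 genes of any list passed. The list called the CDK-1 switch held 11 genes, of the CDC-25 phosphatases and the WEE-1, polo and Aurora kinases. Of these, 9 were higher in *xpc-1* than in wild-type and 0 lower by the same edgeR test. The median log2 fold change was 1.11 over the list, against -0.017 over all genes. The activating phosphatase gene *cdc-25.3* rose most, by 2.13 on the log2 scale, from 3.84 and 4.41 CPM to 18.1 and 17.6 CPM. *wee-1.1*, of the family of inhibitory kinases, rose by 1.35, and the least raised were the polo kinase gene *plk-1* by 0.76 and the Aurora kinase gene *air-1* by 0.72. The related gene *plk-3* (log2 fold change -0.40, adjusted p = 0.153 by edgeR) and *cdc-25.4*, near 1 CPM in both strains, did not pass.

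Of 14 anaphase and spindle checkpoint genes, 13 were higher, against 20.0% of all genes, and 0 lower (median log2 fold change 0.72). *ify-1*, the securin that holds separase inactive until anaphase, rose by 1.62 on the log2 scale, from 20.4 and 19.3 CPM to 64.6 and 55.5 CPM, and *fzy-1*, the CDC20 activator of the anaphase-promoting complex, by 1.203. The anaphase-promoting complex subunits *mat-2* and *emb-27* rose least, by 0.47 and 0.42, and *emb-30* did not pass. All 11 S phase genes were higher (median 0.83), against 20.0% of all genes, led by the replicative helicase subunit *mcm-7* at 1.43 and the replication licensing factor *cdt-1* at 1.31. The levels of *mcm-7* were 107 and 127 CPM against 293 and 328 CPM, with no overlap. The licensing factor *cdc-6* (0.53) and the helicase subunit *mcm-4* (0.50) rose least.

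Of 13 G1 to S regulators, 11 were higher, against 20.0% of all genes, and 0 lower (median 0.57). *efl-1*, the E2F transcription factor held in check by LIN-35, rose from 24.2 and 25.28 CPM to 50.9 and 50.8 CPM, or by 1.06 on the log2 scale. *gld-1*, a germ line RNA-binding protein that represses *cye-1* translation, rose by 1.84 on the log2 scale, from 11.5 and 13.8 CPM to 45.2 and 44.6 CPM. The phosphatase gene *cdc-14* rose by 0.39 and the ubiquitin ligase gene *lin-23* by 0.27, the least of those called. *skr-1* did not pass, nor did the runt factor gene *rnt-1*, which stood at 11.4 and 10.6 CPM against 8.90 and 9.49 CPM (edgeR adjusted p = 0.240).

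Among 10 other cyclins, 6 were higher, against 20.0% of all genes, and 0 lower (median 0.44), led by the B-type cyclins *cyb-2.2* (log2 fold change 2.05) and *cyb-2.1* (1.73). Both had at most 6.32 CPM in wild-type. Their sequences are close to each other, so reads may have been divided between them or discarded, and the split between them is uncertain. The least raised were *cyy-1* (0.49) and *ccnk-1* (0.40). *cyl-1*, *cit-1.1*, *cit-1.2* and *cyh-1* did not pass. Of 9 other CDK and CKS genes, 3 were higher, against 20.0% of all genes, and 0 lower (median 0.26): *cks-1*, a CDK-binding subunit, rose by 1.09 on the log2 scale, *cdk-8*, of the Mediator complex, by 0.60, and *cdk-11.2* by 0.59. The neuronal kinase *cdk-5* stood at 0.010 (adjusted p = 0.956 by edgeR).

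**Figure D3:**
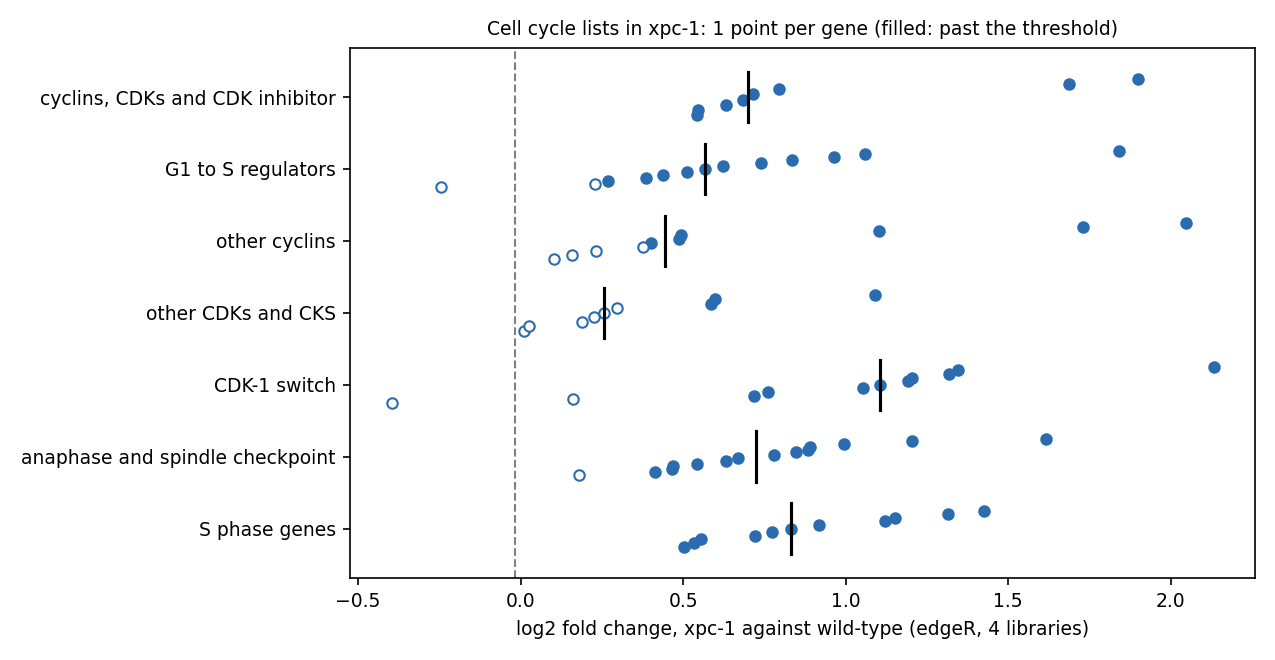
Log2 fold change in *xpc-1* against wild-type (edgeR, 4 libraries) of the 8 genes and of 6 lists of other cell cycle genes, 1 point per gene. Filled points passed the threshold, black lines are list medians and the dashed line is the median of all genes, -0.017; the CDK-1 switch list has the highest median of the lists shown, 1.11, and no filled point lies below 0.

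The *csb-1* strain was compared with wild-type to ask the same of the loss of transcription-coupled repair. Neither this comparison nor *xpc-1* against *csb-1* had any gene past the threshold with edgeR, 0% of 17730 and 0% of 17395 genes (507 and 234 at an unadjusted p under 0.05), and 0 of the 8 were called in either. DESeq2 called 69 and 20 genes (0.389% and 0.115%) and again 0 of the 8. The mean of the 2 *csb-1* libraries described neither of them: the mean log2 fold change of *cyb-1* against wild-type was 1.16 with a standard error of 1.36, and that of *cki-1* -0.17 with a standard error of 0.77. *cdk-2* had the lowest unadjusted p against wild-type, 0.0648, with a log2 fold change of 1.08 (standard error 0.42) and both *csb-1* libraries, at 19.3 and 15.1 CPM, above wild-type. In TMM-scaled CPM, only *cdk-2* and *cdk-4* had both *csb-1* libraries above both wild-type libraries, as did 13.6% of all genes. *cdk-4* in replicate 2 barely cleared them (13.75 against 13.70 CPM). In TPM, which applies no TMM factor (0.720 for replicate 2), neither gene did so. There *cdk-4* in replicate 2, at 6.79 TPM, lay below both wild-type libraries (11.4 and 12.3 TPM). *cdk-2* in replicate 2, at 9.55 TPM, lay between them (10.2 and 8.60 TPM). The *csb-1* and *xpc-1* comparisons use the same wild-type libraries, so their fold changes are not independent.

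All 8 genes were lower in *csb-1* replicate 2 than in replicate 1, against 51.6% of the 17730 genes tested. The distance was greatest for the mitotic cyclins. *cyb-1* stood at 325 CPM in the first and 18.3 CPM in the second, and *cyb-3* at 654 and 43.2 CPM, ratios of 17.7 and 15.2. *cki-1* followed with 95.0 and 22.8 CPM. For these 3 genes replicate 1 lay above both wild-type libraries and replicate 2 below both.

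The other 5 genes differed less. *cdk-1* stood at 114 CPM (replicate 1) and 51.8 CPM (replicate 2), *cye-1* had 39.3 and 15.4 CPM, *cdk-4* had 30.8 and 13.7 CPM, and *cyd-1* had 82.7 and 45.5 CPM. *cdk-2* differed least, by a ratio of 1.28. Replicate 1 was above both wild-type libraries for all 5. In TMM-scaled CPM, replicate 2 was just below both for *cyd-1* and *cye-1*. In TPM it lay further below, at 17.1 against 34.9 and 42.0 TPM for *cyd-1* and at 5.56 against 10.9 and 11.099 TPM for *cye-1*. There *cdk-1*, at 32.1 TPM, was also below both (54.2 and 58.7 TPM). TPM applies no TMM factor (0.720 for replicate 2), and all genes of that library stood lower against wild-type in TPM than in CPM. The further drop in TPM is therefore not particular to these genes. By CPM, replicate 2 was the lowest of the 6 libraries for 5 of the 8 genes (62.5%), against 37.3% of the 17730 genes tested. These were *cyb-1*, *cyb-3*, *cki-1*, *cyd-1* and *cye-1*. Of the lists, every one of the 14 anaphase and spindle checkpoint genes and of the 11 S phase genes was also higher in replicate 1. So were 12 of 13 G1 to S regulators and 10 of 11 genes of the CDK-1 switch list. For the other cyclins it was 9 of 10, and for the other CDK and CKS genes 8 of 9. Over all genes tested the share was 51.6%.

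Each *csb-1* library was then compared with the 2 wild-type libraries on its own, on the assumption that a lone library varies as the wild-type ones do. Such a comparison concerns that library, not the strain. Replicate 1 alone had all 8 genes higher, where 55.9% of 17421 genes passed, 27.5% of all upward. The log2 fold changes ran from 0.53 for *cki-1* and 0.58 for *cyd-1* to 1.96 for *cyb-3* and 2.09 for *cyb-1*. For *cdk-1*, *cdk-4*, *cye-1* and *cdk-2* they lay between 1.203 and 1.26, above the 0.63 to 0.80 of the same genes in *xpc-1*. In the comparison of *xpc-1* with this library alone, 3 of the 8 passed, against 17.7% of all genes (6.96% of all downward): *cdk-2* fell by 0.63, *cdk-4* by 0.56 and *cyb-1* by 0.40 on the log2 scale in *xpc-1* (adjusted p = 0.0409, 0.0374 and 0.0463 by edgeR). For *cyb-3*, *cki-1* and *cyd-1* the difference between *xpc-1* and this library was between -0.062 and 0.016 on the log2 scale, with standard errors of 0.11 to 0.15. Against replicate 2 alone, 7 of the 8 were higher in *xpc-1*, all but *cdk-2*, where 63.3% of genes passed and 34.4% upward, and *cyb-3* and *cyb-1* differed most, at 3.85 and 3.74 on the log2 scale.

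Replicate 2 alone had 4 of the 8 past the threshold, where 53.9% of 17279 genes passed, 24.3% upward and 29.6% downward. *cyb-1* fell by 2.08, *cyb-3* by 1.98 and *cki-1* by 1.55 on the log2 scale (adjusted p = 1.23e-06, 3.05e-06 and 2.36e-05 by edgeR), while *cdk-2* rose by 0.89 (adjusted p = 0.00462 by edgeR). The other 4 had log2 fold changes between -0.31 and 0.056. The depth scaling bears on these small values. TMM gave this library a factor of 0.720, against 1.04 to 1.08 for the others, and with library size only the median of all genes moved from -0.078 to -0.63. With that scaling, chosen after seeing the data, 57.6% of genes passed (47.5% downward), and 6 of the 8 were lower: *cyb-1* at -2.63, *cyb-3* at -2.53, *cki-1* at -2.09, *cyd-1* at -0.85, *cye-1* at -0.68 and *cdk-1* at -0.50. *cdk-2*, at 0.33, did not pass. Rescaling shifts every gene of this library by nearly the same amount, so it cannot decide which genes lie below the median gene. *cyb-1*, *cyb-3* and *cki-1* lay far below the median gene. With TMM, *cyd-1* was at -0.31 (standard error 0.15) and *cye-1* at -0.13 (standard error 0.18), against the median of -0.078. *cye-1* was thus at the median gene within its standard error.

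**Figure D4:**
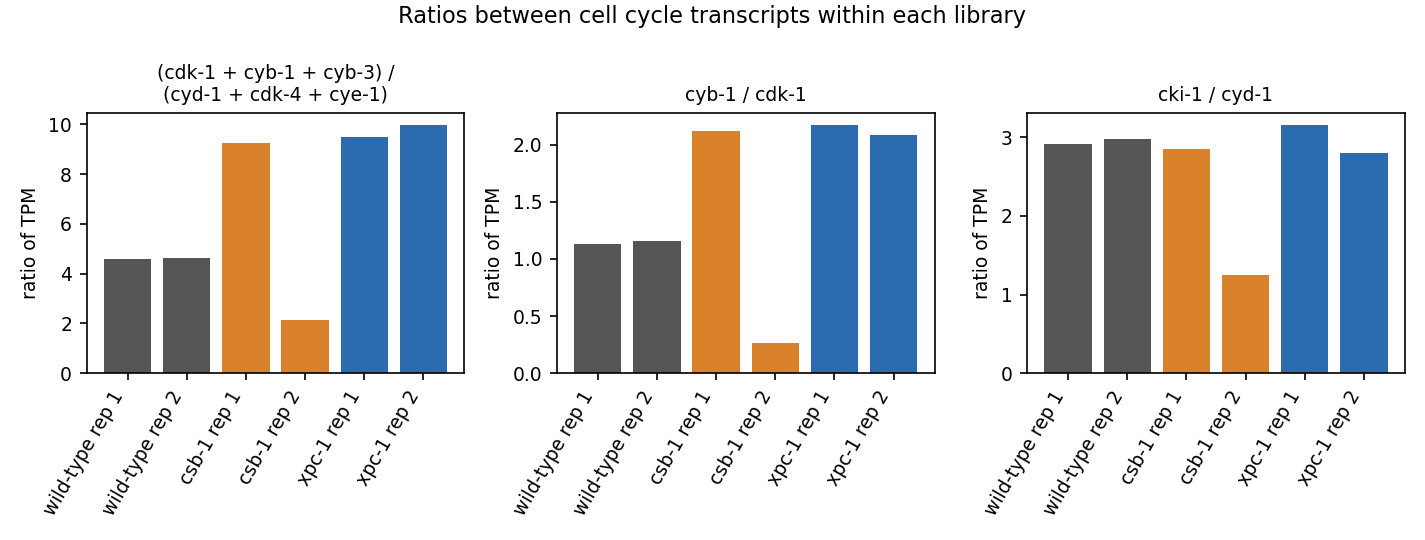
Ratios of TPM within each of the 6 libraries (bars from 0): the mitotic sum over the G1 entry sum, *cyb-1* over *cdk-1*, and *cki-1* over *cyd-1*. The first ratio is 4.57 and 4.63 for wild-type and between 9.26 and 9.95 in both *xpc-1* libraries and *csb-1* replicate 1, and *csb-1* replicate 2 has the lowest bar in each panel.

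Several ratios within a library, which are free of depth scaling, separated replicate 2 from the other 5 libraries. The *cyd-1* to *cdk-4* ratio did not, at 2.52 in replicate 2 and between 2.05 and 3.42 in the other libraries. The mitotic to G1 entry ratio was 2.14 in replicate 2 and 9.26 in replicate 1, on either side of the 4.57 and 4.63 of wild-type. *cyb-1* stood at 0.263 of the *cdk-1* level in replicate 2 and at 2.12 times it in replicate 1. The *cki-1* to *cyd-1* ratio was 1.25 in replicate 2 and between 2.80 and 3.15 in every other library, and *cye-1* to *cdk-2* was 0.582 there and between 1.07 and 1.32 elsewhere. The 2 B-type cyclins kept to each other throughout, with a *cyb-3* to *cyb-1* ratio between 2.28 and 3.06 in all 6 libraries, while *cyb-1* spanned 17.7-fold and *cyb-3* 16.03-fold in CPM. The cuticle collagen gene *dpy-7*, a hypodermis marker, was at 316 CPM (replicate 1) and 0.0574 CPM (replicate 2), against 96.7 to 206 CPM elsewhere. The other hypodermis markers differed less, *elt-1* with 76.9 and 26.9 CPM and *elt-3* with 59.9 and 44.8 CPM. The 3 intestine markers summed to 316 and 1013 CPM. Most of that sum was *ifb-2* (270 and 944 CPM), while *ges-1* had 17.4 and 40.4 CPM and *elt-2* 28.6 and 28.7 CPM. The part of these markers in the cyclin values was not tested.

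The genes whose pattern over the 6 libraries came nearest to *cki-1* were *K02E10.6*, *K12H6.6* and *T02E9.5*, with root mean squared differences of 0.043, 0.061 and 0.069 in centred log2(CPM + 1), among 9136 protein-coding genes with a mean of at least 10 CPM. The nearest of the other 7 was *cyd-1*, at rank 1205. Nearest to *cdk-1* were *trul-1*, *pola-1* and *pig-1*, at 0.031, 0.053 and 0.055. *cdk-4* came at rank 9 and *cye-1* at rank 134, while the mitotic partners *cyb-1* and *cyb-3* came at ranks 7496 and 7562. By this measure *cdk-1* was therefore closer to the G1 genes *cdk-4* and *cye-1* than to its own cyclins. The measure counts the size of a change as well as its direction, so a wider swing alone gives a distant rank. Like *cdk-1*, both cyclins were higher in the *xpc-1* libraries and in *csb-1* replicate 1 than in wild-type. This is a description of 6 libraries, in which *csb-1* replicate 2 weighs heavily.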

How the data were processed

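The authors aligned paired reads with STAR, kept confidently mapped proper pairs outside the mitochondrial genome and counted reads over exons with featureCounts 2.0.4; the deposited values are raw counts per gene with the summed exon length. The file headers name Ensembl release 105 of WBcel235 and the methods WS295. Both mates were counted, so counts are not independent molecules: 61.6% to 75.4% of counts from 1 to 10 were even. Gene names came from a table of WormBase symbols (44017 of 46904 matched) and gene types from release 115.

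Genes reaching 10 counts in 2 or more libraries were tested with edgeR 4.0.16 (R 4.3.3), TMM factors and a Benjamini-Hochberg adjusted p under 0.05, each comparison on the 4 libraries of its 2 strains. edgeR fits 1 spread per gene, and the *csb-1* libraries differ far more than the others; a fit of all 6 was an alternative. Standard errors were derived from the F statistic. CPM shown use TMM over 6 libraries. The genes, lists and this choice of libraries were made with earlier results of these data known. Named from each list reported were the 2 highest and 2 lowest past the threshold with a mean of at least 5 CPM, and, chosen after seeing values, some that did not pass and *dpy-7*. DESeq2 1.42.0, other normalizations and filters, halved counts, the replicate block and leaving out each library were also tried. The fits were also run on simulated counts with known changes, drawn for each comparison from a shared mean profile. Such counts lack the difference in composition between the *csb-1* libraries, and their outcome is not reported here. Python 3.11.15, pandas 2.3.3 and matplotlib 3.10.9 were used. Promoter and protein sequences were not analysed here. The list of genes upstream of *cki-1* is not reported here.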

Additional observations from a re-analysis of the deposited data

How the results depend on the processing

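The limits are the 2 libraries per strain and the gap between the *csb-1* libraries. Where a value moved, the cause was not tested unless the setting itself leaves out a *csb-1* library. For *xpc-1* against wild-type, 6653 genes and 8 of the 8 were called. The fit of all 6 libraries called 0 genes and 0 of the 8, and each of the other settings that kept all 4 libraries called 8. The replicate block called 8850 genes and 8 of the 8; the numbers share no stated batch (correlation of replicate differences 0.33 between wild-type and *xpc-1*, -0.0036 and 0.017 for the other pairs). Leaving out 1 library gave 4481 to 4904 genes and 6 to 8 of the 8.

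For *csb-1* against wild-type, DESeq2 called 69 genes. Under the replicate block *cyb-3* stood at -0.0059. Leaving out 1 library gave 0 to 9734 genes and 0 to 8 of the 8, with log2 fold changes from -0.31 to 0.58 for *cyd-1*, -0.13 to 1.24 for *cye-1*, -2.08 to 2.09 for *cyb-1*, -1.98 to 1.96 for *cyb-3* and -1.55 to 0.53 for *cki-1*. With library size only, the fit without *csb-1* replicate 1 called 9958 genes and 6 of the 8 (values of changed sign: *cdk-1* -0.50, *cdk-4* -0.49, *cyd-1* -0.85, *cye-1* -0.68, *cyb-1* -2.63, *cyb-3* -2.53), and that without replicate 2 called 9389 genes and 8 (*cki-1* at 0.55, of changed sign).

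For *xpc-1* against *csb-1*, DESeq2 called 20 genes. *cye-1* changed sign without the filter (0.00031), with scaling by upper quartiles (0.026) or by library size alone (0.12), with 10 counts in every library (0.0061) and the replicate block (0.12), and *cdk-4* by library size alone (0.049) and the block (0.0031). Leaving out 1 library gave 0 to 10691 genes and 0 to 7 of the 8, with -0.41 to 0.72 for *cdk-1*, -0.56 to 0.60 for *cdk-4*, -0.034 to 0.82 for *cyd-1*, -0.53 to 0.81 for *cye-1*, -0.40 to 3.74 for *cyb-1* and -0.062 to 3.85 for *cyb-3*. With library size only, the fit without *csb-1* replicate 1 called 11472 genes and 7 of the 8 (values of changed sign: *cdk-2* 0.30, *cdk-4* 1.18, *cye-1* 1.39), and that without replicate 2 called 3999 genes and 5 (values of changed sign: *cdk-1* -0.43, *cyd-1* -0.055, *cyb-1* -0.42, *cyb-3* -0.083, *cki-1* -0.0042).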
